A study of Mus musculus with 6 samples.

Results

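miR-103 and miR-107 are a pair of near-identical microRNAs (miRNAs), short RNAs that pair with messenger RNAs and lower the protein made from them. Each was the target of 1 TaqMan RT-PCR assay in macrophages grown from mouse bone marrow, and the pair made up 2 of the 596 miRNA assays of the panel. The assays were found by matching their names to miR-103 and miR-107. The KO group was 3 male mice of the genotype LysM-Cre/Dicer flox/flox/Apoe-/-, in which both Dicer alleles are floxed. The WT group was 3 male mice of the genotype LysM-Cre/Dicer wt/wt/Apoe-/-. All 6 mice were 6 to 8 weeks old, all lacked the apolipoprotein of circulating lipoproteins that Apoe encodes, and all carried the Cre driver, which is active in myeloid cells. Marrow cells were kept for 7 days in DMEM-F12 with 10% FCS and 10% medium from L929 cells, which secrete the growth factor that macrophages need. Dicer is the RNase that cuts hairpin precursors into mature miRNAs, and the comparison asks how far a miRNA depends on it. No assay of Dicer mRNA was analysed here, so the degree of deletion in these cultures was not measured.

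miR-103 and miR-107 are processed from hairpins inside introns of the genes of pantothenate kinases, the enzymes that begin coenzyme A synthesis. In mouse liver and fat they are known to lower insulin sensitivity, in part through caveolin-1, which is the basis of their link to lipid and glucose metabolism. In human breast cancer cells they were described to repress Dicer itself, so the enzyme that makes the pair is also among its targets.

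The mature strands show how alike the pair is. They are given 5′ to 3′ from RefSeq (GRCm38.p6), with the seed, bases 2 to 8, in capitals.
miR-103-3p: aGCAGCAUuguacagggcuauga
miR-107-3p: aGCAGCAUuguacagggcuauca
Both are 23 bases long and 22 of the bases are the same. The only substitution is G22C, counted from 1 at the 5′ end of miR-103-3p and written with the base of miR-103-3p first. The seed GCAGCAU is shared by both and by no other of the 1679 mature miRNA names in the RefSeq table. The assays have to tell the pair apart by 1 base next to the 3′ end. How much of each miRNA the assay of the other detects was not measured, so the values of each may hold some signal of the other.

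The precursors show where the pair comes from, with the mature 3p strand in capitals. miR-103 has 2 hairpins, Mir103-1 at chr11:35782396-35782481 (plus strand) within the bounds of Pank3 and Mir103-2 at chr2:131288052-131288137 (plus strand) within Pank2. miR-107 has 1 hairpin, Mir107 at chr19:34820687-34820773 (minus strand) within Pank1.
Mir103-1: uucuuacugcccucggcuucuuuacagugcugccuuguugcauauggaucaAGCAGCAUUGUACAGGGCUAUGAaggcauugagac
Mir103-2: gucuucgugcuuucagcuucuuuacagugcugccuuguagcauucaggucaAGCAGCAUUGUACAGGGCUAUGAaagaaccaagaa
Mir107: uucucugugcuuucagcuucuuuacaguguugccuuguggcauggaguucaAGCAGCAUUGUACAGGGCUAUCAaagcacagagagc
Both miR-103 hairpins yield the same 3p strand, so the assay reads their sum and cannot separate the Pank2 and Pank3 loci.

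The measure is the threshold cycle (Ct), the cycle at which the signal crosses a set level. It is 1 cycle later for each halving of template, and a well without amplification is listed at 40. Ct values at or above 35 were set to 35, a ceiling. The level of a miRNA is minus its Ct relative to the mean Ct of 5 endogenous small RNA controls (U6, U87, Y1, snoRNA135 and snoRNA202) run in the same block of assays in the same sample, on the log2 scale. Both members lie in pool A, the block that holds 335 of the miRNA assays. The control mean of pool A was at Ct 22.8, 20.3 and 19.3 in KO samples, against 21.1, 20.6 and 19.1 in WT samples. KO replicate 1 was the latest of the 6, and the groups overlapped (exact permutation p = 0.8, two-sided). Between 219 and 290 miRNA assays were below the ceiling in KO samples, against 307 to 309 in WT samples. Labels and design give 3 mice per group, and their number limits the precision.

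miR-103 was lower in KO macrophages, by about 9-fold. Its Ct was 29.9, 25.6 and 24.997 in KO samples, against 23.6, 23.3 and 22.2 in WT samples. Every KO well crossed the threshold later than every WT well, the latest being KO replicate 1. Relative to the 5 controls the level was -7.04, -5.33 and -5.66 in KO samples (-6.01 ± 0.91, SD, n = 3), against -2.53, -2.74 and -3.09 in WT samples (-2.78 ± 0.28, SD, n = 3). The groups were apart by more than the spread within either, and the KO samples spread more widely than the WT samples. The difference was -3.23 ± 0.62 on the log2 scale (SE, 95% interval -4.69 to -1.76), which is 9.35-fold lower in KO (limma, adjusted p = 0.0311; 0.042 with the replicate number as a block). Assays were tested where at least 1 group had all of its wells below the ceiling, 282 in all, and 37.2% of them were called lower. No KO sample reached the lowest WT sample in 59.9% of them. Set against the WT mean, KO replicates 1, 2 and 3 were 19.1-fold, 5.83-fold and 7.36-fold lower. In these cultures, fewer cells that hold miR-103 and less miR-103 per cell cannot be told apart.

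**Figure D1:**
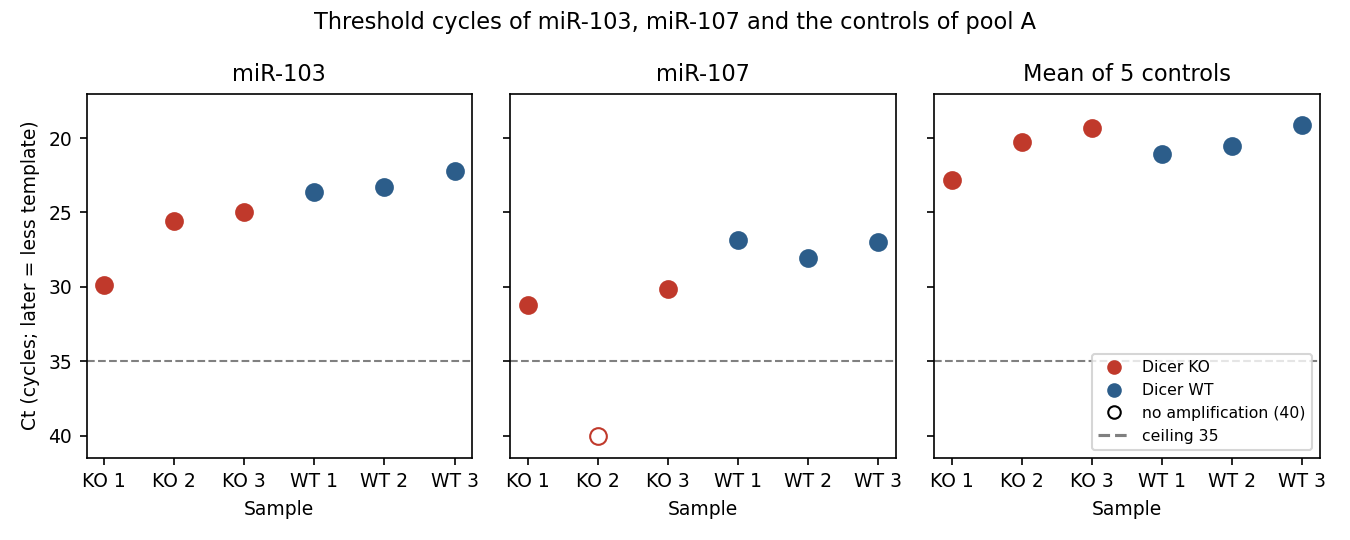
Ct of miR-103, miR-107 and the mean of the 5 controls of pool A in each KO and WT sample, with the axis turned so that more template is higher. miR-103 lies at 24.997 to 29.9 in KO samples and 22.2 to 23.6 in WT samples, and the open circle is the miR-107 well of KO replicate 2, which did not amplify and is listed at 40.

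The size of the miR-103 difference did not hinge on 1 control. With a single control in place of the 5 it was -3.32 for U6, -3.32 for U87, -3.34 for Y1, -3.08 for snoRNA135 and -3.06 for snoRNA202. With each of these controls the groups did not overlap. The call itself held with 4 of the 5 and was lost with snoRNA135 (adjusted p = 0.0711). An exact permutation test of the level gave p = 0.1, two-sided, the smallest that 3 samples against 3 allow. Without KO replicate 2 the difference was -3.57 (adjusted p = 0.056), and without WT replicates 1, 2 or 3 it was -3.10, -3.20 and -3.38 (adjusted p = 0.111, 0.109 and 0.0733), so that limma no longer called it. Without KO replicate 1, which has the latest controls and the lowest miR-103, the difference was -2.71 and passed (adjusted p = 0.0201).

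miR-107 was also at a lower level in every KO sample than in any WT sample relative to the 5 controls, but it did not pass the test. Relative to U6 alone its groups overlapped, KO replicate 1 lying above WT replicate 3 (exact permutation p = 0.2, two-sided). Its Ct was 31.2, 40 and 30.2 in KO samples, against 26.9, 28.0 and 27.0 in WT samples. The value of 40 in KO replicate 2 is a well without amplification. Relative to the 5 controls the level was -8.39, at most -14.7 and -10.8 in KO samples, against -5.80, -7.49 and -7.85 in WT samples. The gap between the highest KO sample, replicate 1, and the lowest WT sample was much narrower than the spread among KO samples. The difference was -4.27 ± 1.56 (SE, 95% interval -7.97 to -0.58; limma, adjusted p = 0.0623), with an unadjusted p of 0.0292. With the KO replicate 2 well set to the ceiling, the fitted difference is 19.4-fold, a value that moves with the ceiling. In the fit blocked on replicate number it passed (limma, adjusted p = 0.0485).

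The KO replicate 2 well had a large share in the size of the miR-107 difference. Over the other 2 KO samples miR-107 was 5.94-fold lower (-2.57, adjusted p = 0.101), and miR-103 was 11.9-fold lower over the same samples (-3.57). With the ceiling at 40 in place of 35 the miR-107 difference was -5.94 (adjusted p = 0.145), and with the ceiling at 33 it was -3.61 and passed (adjusted p = 0.0392). Without KO replicate 1 it was -5.74 and also passed (adjusted p = 0.0381). In KO replicate 2, miR-103 was measured at Ct 25.6 and the pool A controls at 20.3, and 277 miRNA assays of that sample were below the ceiling. Among assays with 3 WT wells and 2 KO wells below the ceiling and 1 KO well at 40, a pattern looked at after the values were seen, 35 were counted. The well at 40 was that of KO replicate 1 in 30 of them, of KO replicate 3 in 2 and of KO replicate 2 in 3, namely miR-107, miR-582-5p and miR-466J. Both other KO wells were below Ct 32 in 22 of the 35, and among these miR-107 was the only one with KO replicate 2 at 40. The later of the other KO wells was at Ct 31.2 for miR-107, 32.96 for miR-582-5p and 33.59 for miR-466J.

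The pair did not vary in parallel across KO samples. miR-103 exceeded miR-107 by 1.35, at least 9.40 and 5.18 on the log2 scale in KO samples (5.31 ± 4.03, SD, n = 3), against 3.27, 4.75 and 4.77 in WT samples (4.26 ± 0.86, SD, n = 3). KO replicates 1 and 2 lay on either side of all WT samples. This difference within a sample is free of the controls, since both assays are in pool A, but its absolute size includes any difference in assay efficiency. The change in it, KO minus WT, was 1.05 (exact permutation p = 0.7, two-sided), with values of -0.997 when KO replicate 2 was left out and 3.03 when KO replicate 1 was. Both the KO mean and this change hold the miR-107 well of KO replicate 2 set to the ceiling. The change was 2.72 with the ceiling at 40 and 0.38 with the ceiling at 33. These values set no order between the pair, nor do they show that both changed alike. KO replicate 1 had the lowest miR-103 and the highest miR-107 of the KO samples.

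The authors' deposited tables treat the wells differently. In the authors' deposited table of relative quantities, miR-103 was at 0.0584, 0.179 and 0.135 in KO samples, against 1.24, 1.00 and 0.807 in WT samples. In the same deposited table miR-107 was at 0.440, 0.000159 and 0.0716 in KO samples, against 2.46, 0.716 and 0.568 in WT samples. The value 0.000159 is the well without amplification, with Ct 40 taken as a number. The authors' deposited table of fold changes gives KO over WT as 0.122 for miR-103 and 0.137 for miR-107, which is 8.17-fold and 7.32-fold lower. From the authors' deposited table of relative quantities, the ratio of geometric means is 8.91-fold for miR-103 and 58.5-fold for miR-107. Without KO replicate 2, the ratio of arithmetic means computed from the authors' deposited table is 0.0954 for miR-103 and 0.205 for miR-107.

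Lower values in KO macrophages were common across the panel, as the share of 37.2% called lower shows. Only 0.355% were called higher. The median difference was -1.91, and the middle part of the distribution, from the first to the third quartile, ran from -2.44 to -1.004. miR-103 was the 30th lowest and miR-107 the 12th lowest of the 282. Many of the lowest had wells at the ceiling, among them miR-107, which was at -2.57 without KO replicate 2. Among the 201 assays below the ceiling in all 6 samples miR-103 was the 3rd lowest, after miR-322* and miR-652. Its neighbours in that order, miR-652 at -3.62 ± 0.84 and miR-301b at -3.20 ± 0.50 (SE), differed from it by less than these errors.

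**Figure D2:**
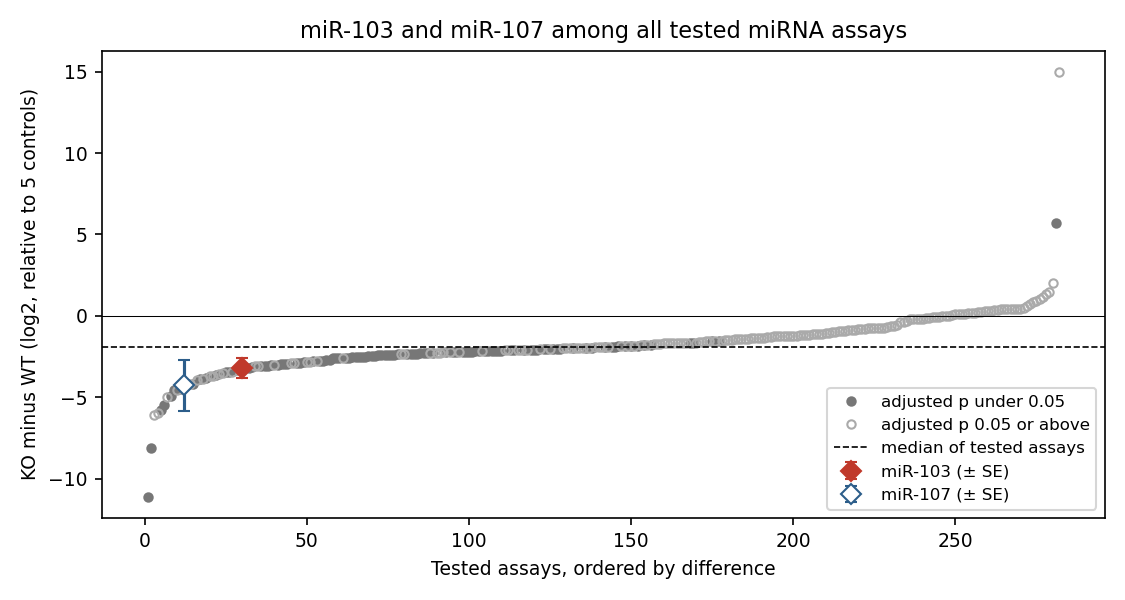
KO minus WT difference (log2, relative to the 5 controls) of each of the 282 tested assays, in rising order, with miR-103 and miR-107 as diamonds with their SE. miR-103 at -3.23 is filled, having passed at an adjusted p under 0.05, and miR-107 at -4.27 is open, and both lie below the dashed median of -1.91.

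Whether miR-103 fell beyond this common shift was tested with the mean of the pool A miRNA assays below the ceiling in all 6 samples in place of the controls. On that scale miR-103 was at -1.13, -0.40 and -0.78 in KO samples (-0.77 ± 0.37, SD, n = 3), against 0.63, 0.43 and 0.65 in WT samples (0.57 ± 0.12, SD, n = 3). It was below the average measured miRNA in every KO sample and above it in every WT sample. A like separation of the groups on this scale was seen in 18.1% of the tested assays. The difference was -1.34 ± 0.38 (SE, 95% interval -2.26 to -0.42) and did not pass after adjustment (limma, adjusted p = 0.191; unadjusted p = 0.0118). On this scale 0.709% of the tested assays were called lower. miR-107 was at -2.39 ± 1.79 (SE; adjusted p = 0.52), its groups overlapped, and it was at -0.53 without KO replicate 2.

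Relatives of the pair could be set beside it, through 8 assays of miRNAs that carry the letters AGCAGC at or next to their 5′ end, known as the group of miR-15 and miR-107. They are shown because the shared letters sit 1 base further in than in miR-103 and miR-107, which shifts the seed. The sequences are from RefSeq (GRCm38.p6), 5′ to 3′, with AGCAGC in capitals.
miR-103-3p: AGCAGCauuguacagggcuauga
miR-107-3p: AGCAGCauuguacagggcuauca
miR-15a-5p: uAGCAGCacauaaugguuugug
miR-15b-5p: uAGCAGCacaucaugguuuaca
miR-16-5p: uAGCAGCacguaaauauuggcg
miR-195a-5p: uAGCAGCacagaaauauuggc
miR-497a-5p: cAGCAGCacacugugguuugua
miR-322-5p: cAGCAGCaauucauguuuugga
miR-503-5p: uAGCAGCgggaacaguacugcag
Bases 2 to 8 are GCAGCAU in the pair, AGCAGCA in miR-15a, miR-15b, miR-16, miR-195, miR-497 and miR-322, and AGCAGCG in miR-503. miR-15 and miR-16 are known to restrain cell survival and cell cycle genes such as Bcl2 and the cyclins D, and miR-322 and miR-503 come from 1 cluster on the X chromosome and also act on cell cycle genes.

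Of the 10 assays of the group, all tested, 4 were lower in KO and 6 did not pass, with a median difference of -2.26, beside 37.2% lower and a median of -1.91 for all tested assays. Apart from the pair, 3 of 8 assays were lower, with a median of -1.72, so the count of the group lay near that of the panel. miR-497 was at -10.6, -8.34 and -9.67 in KO samples, against -6.38, -6.62 and -6.67 in WT samples (level, log2), and fell 7.90-fold (limma, -2.98 ± 0.68, SE; adjusted p = 0.0312). Like miR-103 it had no overlap between groups, as in 59.9% of all tested assays. It was also lowest in KO replicate 1, as were miR-103 and the median level of the tested pool A assays. miR-503 fell 6.10-fold (-2.61 ± 0.83, SE; limma, adjusted p = 0.0471, but 0.0535 in the blocked fit), and miR-15b fell 2.89-fold (-1.53 ± 0.48, SE; limma, adjusted p = 0.047).

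Besides miR-107, 5 assays of the group did not pass. miR-15a was at -1.26 ± 0.52 (SE; limma, adjusted p = 0.0833), miR-195 at -1.26 ± 0.56 (adjusted p = 0.102) and miR-16 at -1.37 ± 0.67 (adjusted p = 0.132). miR-16 was the single assay of the group in which a KO sample lay above a WT sample, so 9 of 10 did not overlap, beside 59.9% of all tested assays. miR-322 was assayed once in each pool, at -1.91 ± 0.64 (SE; limma, adjusted p = 0.0524) in pool A and at -3.55 ± 1.80 (SE; adjusted p = 0.144) in pool B. In KO replicate 1 the pool B assay of miR-322 did not amplify, while the pool A assay of the same miRNA crossed at Ct 30.3. In the other samples both miR-322 assays amplified, at Ct 26.0 and 25.3 in pool A for KO replicates 2 and 3, against 25.5, 24.7 and 23.9 for the WT samples. In pool B they were at Ct 25.998 and 24.8 for the same KO replicates, against 25.9, 24.6 and 23.4 for the WT samples. No assay of the group was called without KO replicate 2 or without any 1 WT replicate (limma; 6, 3, 4 and 6 at an unadjusted p under 0.05 without KO replicate 2 and WT replicates 1, 2 and 3), and none with snoRNA135 alone as the reference (5 unadjusted). Over all tested assays, 133 of 282, 114 of 289, 102 of 292 and 126 of 291 were lower at that unadjusted p, in the same order. With snoRNA135 alone the unadjusted count over all tested assays was 114 of 282. With U87 or Y1 alone 2 assays of the group passed, miR-103 and miR-497, beside 83 and 80 of the 282 tested assays.

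**Figure D3:**
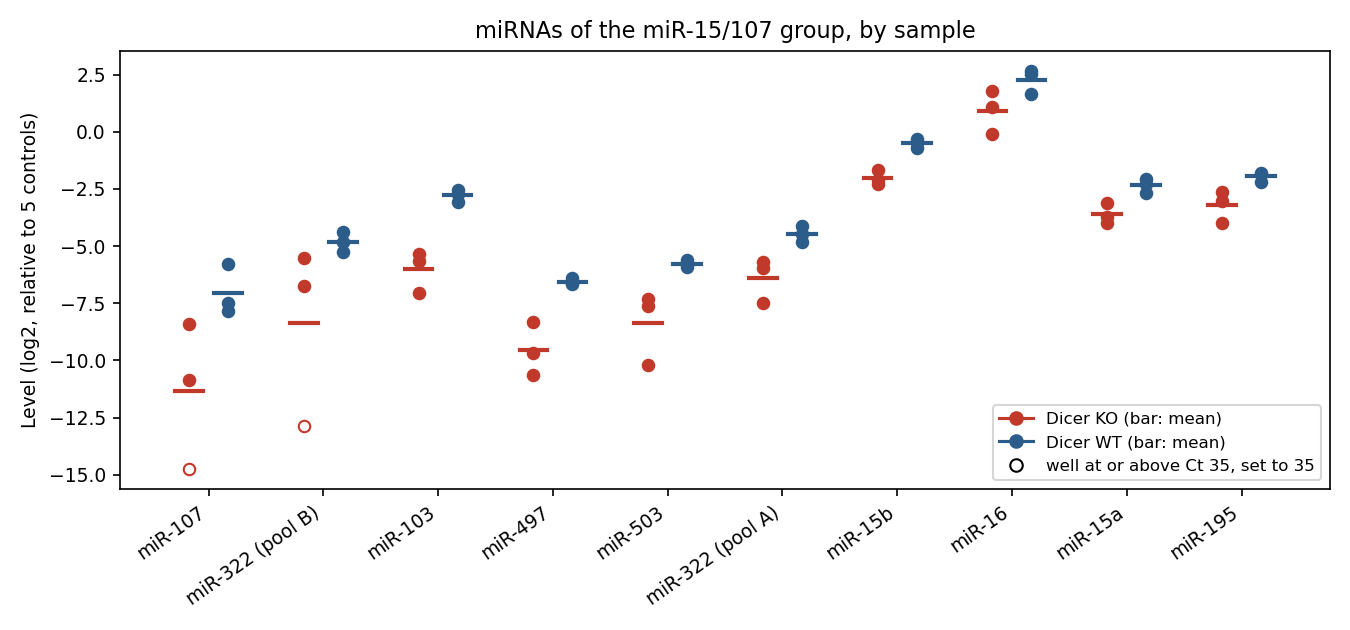
Level (log2, relative to the 5 controls of the pool) of the 10 assays of miR-103, miR-107 and their relatives in each KO and WT sample, with the mean as a bar. Open circles are the wells of miR-107 in KO replicate 2 and of miR-322 (pool B) in KO replicate 1, set to Ct 35, and the KO and WT samples of miR-103 do not overlap.

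The panel held 35 assays of miRNAs with published roles in lipid handling, a list that includes the pair. Of the 26 tested, 13 were lower in KO, none was higher (0 at an unadjusted p under 0.05) and 13 did not pass, with a median of -1.999. Apart from the pair 12 of 24 were lower, with a median of -1.92, against 37.2% lower and a median of -1.91 for all tested assays. Besides miR-103, the smallest p values belonged to miR-10b (pool A), at -3.91 ± 0.75 (SE; limma, adjusted p = 0.0311) with the KO replicate 1 well at the ceiling, miR-106b, at -2.17 ± 0.49 (adjusted p = 0.0312), and miR-101a, at -2.44 ± 0.57 (adjusted p = 0.0312). miR-10b (pool A) was tested because all of its WT wells were below the ceiling. The pool B assay of miR-10b was not tested, being at Ct 40, 40 and 35.4 in KO samples, against 34.96, 35.4 and 33.9 in WT samples. miR-106b is known to repress the cholesterol exporter ABCA1. The largest p values belonged to miR-145, at -0.64 ± 1.83 (SE; limma, adjusted p = 0.804), miR-467b (pool B), at -0.56 ± 1.44 (adjusted p = 0.779), miR-143, at -0.74 ± 1.68 (adjusted p = 0.752), and miR-19b, at -0.85 ± 0.49 (adjusted p = 0.183). miR-145 is a smooth muscle miRNA that also represses ABCA1. None of the list was called without KO replicate 2 or any 1 WT replicate (limma; between 13 and 18 at an unadjusted p under 0.05). Over all assays tested in those fits, 282 to 292 in number, between 102 and 133 were lower at that unadjusted p.

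The miRNAs whose sample profiles were most like that of miR-103 were sought among 200 other assays below the ceiling in all 6 samples. Likeness was the root mean square difference over the 6 samples between levels taken minus their own mean, so that 0 is an identical profile. The closest were miR-345-5p at 0.27, miR-744 at 0.28, miR-301b at 0.29, miR-497 at 0.33 and miR-331-3p at 0.34, beside a median of 0.96 over all 200. Their differences were from -3.20 for miR-301b to -2.76 for miR-331-3p, and each passed (limma, adjusted p from 0.0267 to 0.0312). They were chosen on the same levels that were tested, so differences near that of miR-103 follow from the choice. miR-107 was 2.43 away from miR-103, and 193 of the 200 assays were closer. This distance includes the KO replicate 2 well of miR-107, set to the ceiling, where miR-107 was at -5.55 and miR-103 at -0.93. Distances from miR-107 thus move with the ceiling and are not a measured divergence. The nearest profiles to miR-107 itself, miR-1839-3p at 1.88 and miR-203 at 1.92, followed by miR-194, miR-324-5p and miR-29b, lay against a median of 2.63 over the 201 assays compared.

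**Figure D4:**
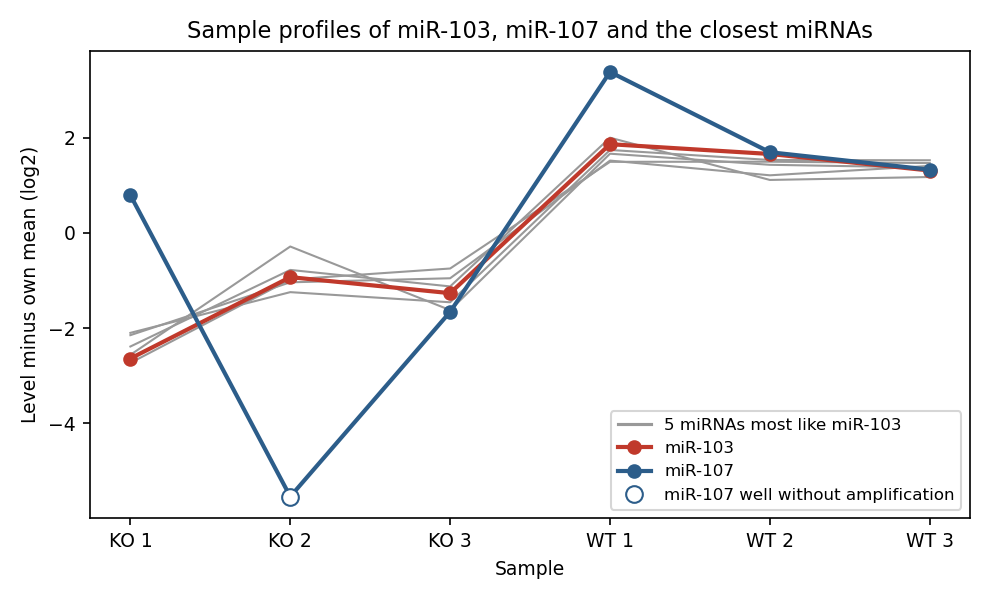
Level minus its own mean over the 6 samples (log2) in each KO and WT sample for miR-103, miR-107 and the 5 miRNAs most like miR-103; the lines join samples only to mark 1 miRNA. miR-103 and its 5 nearest are low in all KO samples, while miR-107 is at 0.79 in KO replicate 1 and at -5.55 in KO replicate 2, where its well did not amplify.

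Marker miRNAs were used to check the labelled cell type, macrophages. Since the markers are miRNAs themselves, fewer cells of a type and less of its marker per cell cannot be told apart where a marker is lower in KO. miR-223, a miRNA of granulocytes and macrophages, was at Ct 20.4, 16.9 and 16.9 in KO samples, against 16.5, 15.3 and 15.0 in WT samples, and miR-142-3p, a miRNA of blood cells, was at 23.0, 20.4 and 19.7 in KO samples, against 19.1, 18.9 and 17.7 in WT samples. Both were thus early in every sample, and both were lower in KO, 3.75-fold and 3.70-fold (limma, adjusted p = 0.0445 and 0.0321). The call of miR-223 was lost without any 1 sample (adjusted p from 0.0605 to 0.157), and that of miR-142-3p without KO replicate 2 or any 1 WT replicate (adjusted p from 0.0634 to 0.123). Against the global mean neither differed detectably (limma, adjusted p = 0.982 and 0.998). Of the 6 macrophage and myeloid assays 3 were called lower, beside 37.2% of all tested assays. miR-142-5p, miR-146a and miR-155 did not pass (limma, adjusted p = 0.0735, 0.0985 and 0.155). On a linear scale with the control mean at 1000, the summed level of the 6 macrophage and myeloid assays, all measured in all 6 samples, was 7962 to 14409 in KO samples, against 28268 to 52551 in WT samples. That of the 5 stromal assays, 4 of them measured in all samples, was 48.8 to 98.7 in KO samples, against 5.08 to 616 in WT samples, the lowest being WT replicate 3. miR-199a-5p did not amplify in KO replicates 2 and 3 or in WT replicate 3. The 3 lymphocyte assays summed to 68.6 to 506 in KO samples, against 982 to 1412 in WT samples. The 7 epithelial assays summed to 22.2 to 53.6 in KO samples, against 115 to 134 in WT samples, with miR-205 at Ct 40 throughout, and the 2 endothelial assays to 0.443 to 6.63 in KO samples, against 7.48 to 13.3 in WT samples. The erythroid miR-451 was below the ceiling in 2 KO samples and 1 WT sample, and did not amplify in KO replicate 1 and WT replicate 3. The sums other than the stromal and the erythroid were lower in every KO sample than in any WT sample, as miR-103 was, and their part in its fall was not tested. The WT samples, whose stromal sums differed widely, had miR-103 levels of -2.53, -2.74 and -3.09.

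**Figure D5:**
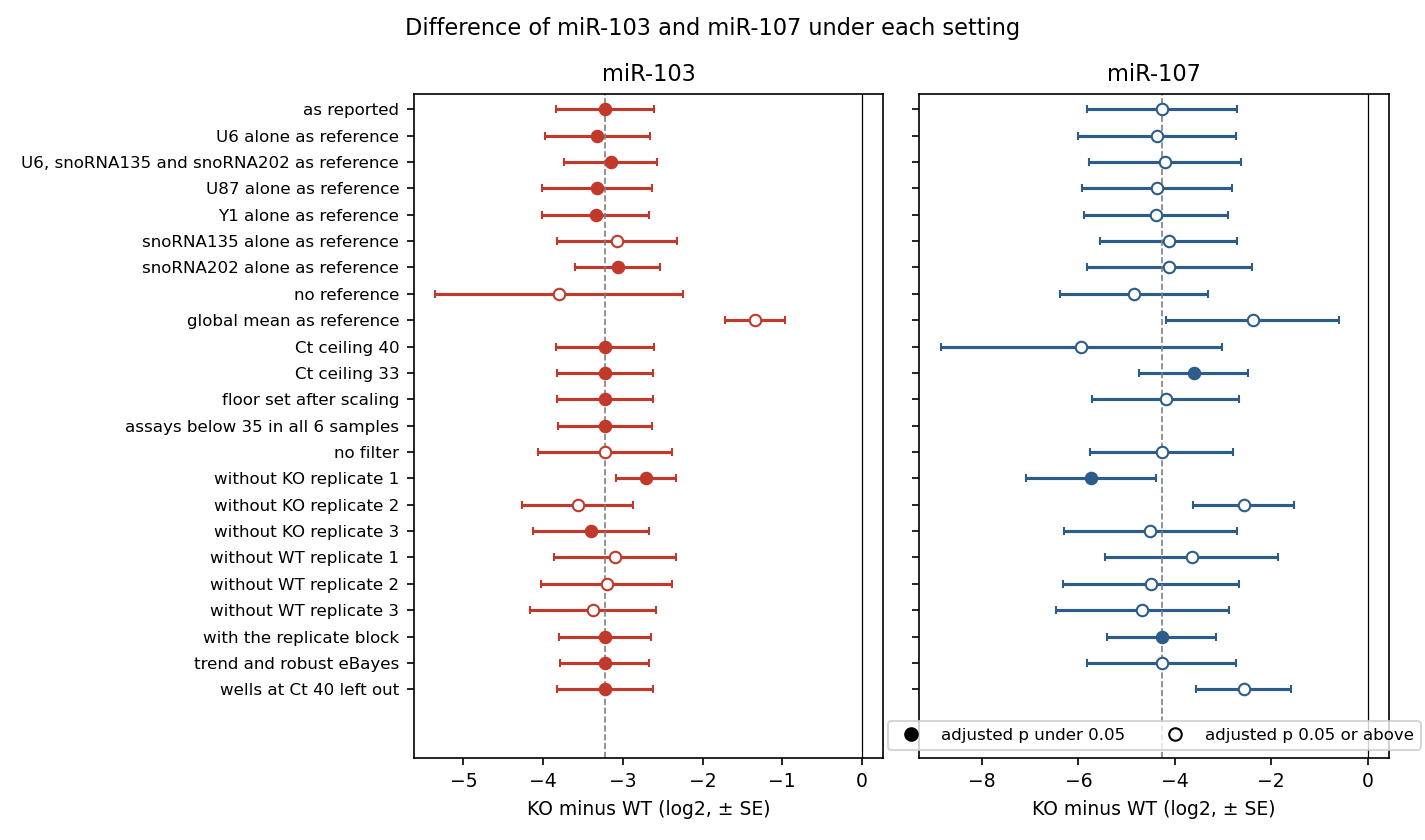
KO minus WT difference (log2, ± SE) of miR-103 and miR-107 as reported and under each other setting, filled where the adjusted p was under 0.05. miR-103 stays below 0 throughout and passes in 14 of 22 other settings, and miR-107 stays below 0 throughout and passes in 3 of 21.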

How the data were processed

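RNA was purified by mirVana kit, copied to cDNA and preamplified with TaqMan reagents, per the labels. Instrument, threshold and software are not given in the sources used here. Deposited values of 3 kinds were read: Ct scores of 608 assays, relative quantities (a ratio) and fold changes of KO over WT (a ratio). For miR-103 and miR-107, the only assays checked, the deposited relative quantities could be rebuilt from the Ct values with 3 controls (U6, snoRNA135, snoRNA202). The deposited fold change of each was the ratio of the arithmetic means of these quantities.

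Names were matched after dropping species prefix and assay number. Assays below Ct 35 in all samples of at least 1 group were fitted with limma 3.58.1 in R 4.3.3 (lmFit, eBayes, two-sided), Benjamini-Hochberg adjusted over all 282, threshold 0.05. The fit was tested on simulated levels with known differences and the same noise in both groups. Unequal spread between groups and wells at the ceiling were not simulated. Sequences were handled in Python 3.11.15 with pandas 2.3.3 and figures drawn with matplotlib 3.10.9. Members and lists were chosen with earlier results of these data known. Named are the pair, their tested relatives, the 4 smallest and 4 largest p of the lipid list, markers, neighbours in rank and the 5 nearest profiles. Alternatives were the reference, ceiling, filter, moderation, wells at 40 left out (chosen after seeing the data), each sample left out, and the replicate number as a block. Same-number KO and WT samples deviated together (correlations over the tested assays of 0.23, 0.28 and 0.27), and were taken as pairs in that block fit, on the data's evidence alone, since no label states a shared batch.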

Additional observations from a re-analysis of the deposited data

How the results depend on the processing

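Both members were lower in KO under every setting tried, 22 for miR-103 and 21 for miR-107, which is not below 35 in all 6 samples. miR-103 passed in 14 and miR-107 in 3 (limma). For miR-103 the difference without 1 sample ranged from -3.57 to -2.71, and it missed the threshold at -3.08 with snoRNA135 alone, -3.80 without a reference (adjusted p = 0.256), -1.34 against the global mean and -3.23 without a filter (adjusted p = 0.167). For miR-107 it ranged from -5.74 to -2.57 without 1 sample, and it passed at -3.61 with the ceiling at 33 and at -4.27 with the replicate block, which also ended the call of miR-503 (adjusted p = 0.0535), raised the lipid list to 17 lower, beside 13, and all assays to 118 lower, of which 92 were shared with the 105. Leaving out wells at Ct 40 gave -2.57 for miR-107 (adjusted p = 0.069). Relative to the global mean, miR-103 lay between -1.53 and -1.11 without 1 sample and miR-107 between -4.14 and -0.53. The change in miR-103 minus miR-107 ran from -0.997 (without KO replicate 2) to 3.03 without 1 sample, and was 0.38 with the ceiling at 33 and 2.72 with the ceiling at 40.

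Calls over all assays shifted together: 4 were lower with snoRNA135 alone, 2 without a reference, 2 against the global mean, 2 without a filter and 2 to 112 without 1 sample, beside 105. With U87 alone 83 of 282 were lower, with Y1 alone 80 of 282, and with the ceiling at 40 the count was 80 of 291. Higher were 2 with U6 alone, 2 with the ceiling at 33, 2 with wells at 40 left out, 1 to 3 without 1 sample and 0 without a reference (limma; 2 unadjusted). The median difference was -2.45 without a reference, -0.20 against the global mean and 0.27 without a filter, where assays at the ceiling in all samples carry only the difference of the controls.

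Of the 10 assays of the pair and its relatives, 2 (miR-103 and miR-497) were lower with U87, 2 with Y1 and 2 with the ceiling at 40, 0 with snoRNA135 (limma; 5 unadjusted), 0 without a reference (3 unadjusted), 0 against the global mean (1 unadjusted), 0 without a filter (4 unadjusted), and 0 to 5 without 1 sample. Of the lipid list 1 was lower with snoRNA135, 0 without a reference (3 unadjusted), 0 against the global mean (2 unadjusted), 0 without a filter (14 unadjusted), and 0 to 13 without 1 sample. Over all tested assays, 114 of 282 were lower at an unadjusted p under 0.05 (limma) with snoRNA135 and 40 of 282 without a reference. The same count was 33 of 282 against the global mean and 127 of 596 without a filter. Against the global mean miR-15a (0.62), miR-15b (0.36), miR-16 (0.52), miR-195 (0.62), miR-19b (1.04), miR-143 (1.15), miR-145 (1.25) and miR-467b (pool B, 0.081) turned positive. Without 1 sample miR-143 ranged from -2.83 to 0.56, miR-145 from -2.94 to 0.69 and miR-467b (pool B) from -1.83 to 0.69. Apart from these ranges and the filter, the cause of the shifts was not tested. Wells near or above Ct 35 give bounds only.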
